A study of Homo sapiens with 4 samples.

Results

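The mitotic kinesins are motor proteins that move chromosomes and spindle microtubules in dividing cells. Here 10 of their genes, chosen by symbol as KIF11, KIF15, KIF22, KIF4A, KIF18A, KIF2C, KIF14, KIF20A, KIF20B and KIF23, were followed among 60605 annotated genes. The rule goes by name and uses no measured value. RNA was sequenced from NIH-OVCAR3 cells (OVCAR3), an established line of high-grade serous ovarian carcinoma, after 24 h of etoposide at 1.7 µM (2 libraries) or of the vehicle DMSO (2 libraries). Etoposide traps topoisomerase II on DNA and leaves strand breaks. Cultures of both groups had been held in nocodazole, a drug that depolymerises microtubules, at 100 ng/ml for 16 h, washed, and given 3 h in fresh medium before the drug or vehicle was added. Both groups therefore carry the history of a mitotic arrest, and no library without nocodazole was analysed here. The labels call the libraries biological replicates. The study asked how expression responds to DNA damage in a line with high lamin A.

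Kinesins bind microtubules through a conserved motor domain that hydrolyses ATP, and most walk towards the plus end. In mitosis they divide the work: kinesin-5 and kinesin-12 push the spindle poles apart, kinesin-4 and kinesin-10 act on chromosome arms, kinesin-8 and kinesin-13 shorten microtubule ends, and kinesin-6 and a kinesin-3 member build the central spindle and complete cytokinesis. Many of their genes are transcribed mainly in G2 and M phase, through promoters that hold a cell cycle genes homology region (spelled TTTGAA or TTTAAA) and CCAAT boxes. In dividing cells their mRNA level tends to follow the share of cells near mitosis, and that share was not measured in these OVCAR3 libraries. The measured level is FPKM, which divides the fragments of a transcript by its length and by the depth of the library, and was summed over the annotated transcripts of a gene. In such bulk samples, fewer cells of a type and less RNA per cell cannot be told apart.

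The promoters of the kinesin-6 genes are printed because these close relatives had the lowest and the highest differences among the 10 genes. Each run covers the 250 bases before and 50 bases after the start site in RefSeq (GRCh38.p14), 5′ to 3′ on the gene's strand, with the motif TTTGAA or its other spelling TTTAAA, and CCAAT, in capitals where found on either strand (CCAAT on the opposite strand reads ATTGG). The windows are chr5:138178862-138179161 for KIF20A, chr10:89701340-89701639 for KIF20B and chr15:69414099-69414398 for KIF23, all on the plus strand.
KIF20A: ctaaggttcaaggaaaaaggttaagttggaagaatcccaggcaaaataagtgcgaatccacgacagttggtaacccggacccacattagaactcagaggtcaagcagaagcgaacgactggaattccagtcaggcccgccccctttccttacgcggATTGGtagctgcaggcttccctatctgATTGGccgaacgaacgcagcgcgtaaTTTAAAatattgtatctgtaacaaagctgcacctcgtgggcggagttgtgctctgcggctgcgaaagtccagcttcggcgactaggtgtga
KIF20B: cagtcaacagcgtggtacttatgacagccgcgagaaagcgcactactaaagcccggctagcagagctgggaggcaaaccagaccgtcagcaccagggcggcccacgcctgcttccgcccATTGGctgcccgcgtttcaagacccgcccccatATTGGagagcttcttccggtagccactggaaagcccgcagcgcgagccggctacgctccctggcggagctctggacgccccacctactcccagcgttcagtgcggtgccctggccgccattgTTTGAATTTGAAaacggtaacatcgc
KIF23: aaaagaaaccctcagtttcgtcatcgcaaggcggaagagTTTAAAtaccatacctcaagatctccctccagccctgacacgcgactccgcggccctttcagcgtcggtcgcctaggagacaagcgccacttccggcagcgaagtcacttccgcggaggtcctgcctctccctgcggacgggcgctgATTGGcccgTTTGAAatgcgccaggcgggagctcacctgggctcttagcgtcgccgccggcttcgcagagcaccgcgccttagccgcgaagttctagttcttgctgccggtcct
With the start site at 0 and positions given for the leftmost base, KIF20A held TTTAAA at −41 and CCAAT on the opposite strand at −94 and −67. KIF20B held TTTGAA at 24 and, directly after it, at 30, both downstream of the start site, with opposite-strand CCAAT at −131 and −98. KIF23 held opposite-strand CCAAT at −64 close to TTTGAA at −55, and a separate TTTAAA at −211. No motif overlapped another in these windows. All 10 genes matched the RefSeq table. TTTGAA was found for 7 of 10 and in 15.2% of all 35116 promoters, TTTAAA for 4 of 10 and in 12.2%, and either spelling for 9 of 10 and in 24.0%. CCAAT was found for 8 of 10 genes and in 34.6% of promoters, and together with either homology region spelling for 7 of 10 and in 9.27%. KIF22 was the gene with neither TTTGAA nor TTTAAA in its windows. A match describes letters in a window, not a bound site.

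KIF20A was the gene of the group that differed between treatments by more than its replicate spread, at 0.590 times its DMSO level in etoposide cells. The other 9 genes lay between −0.14 and 0.21 on the log2 scale, and their intervals all spanned 0. None of the 10 passed the adjusted p of 0.05 in limma, and neither did any of the 22185 genes tested (0%). The study ran a different test (DESeq2) on these libraries and did report genes under an adjusted p of 0.05. Without counts that test was not repeated here. At an unadjusted p under 0.05 in limma, KIF20A was lower, where 4.85% of all genes were lower, and 0 members were higher, where 7.06% of all genes were higher. Both etoposide libraries lay below both DMSO libraries for 2 members, KIF20A and KIF4A, against 19.0% of all genes, and above them for 0 members, against 28.9%. The median log2 fold change was −0.08 over the 10 genes and −0.06 without KIF20A, beside 0.04 over all genes tested, with 3 members higher and 7 lower. It was −0.01 on TPM, where the median of all genes moved to 0.10, and turned to 0.01 without DMSO replicate 2.

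**Figure D1:**
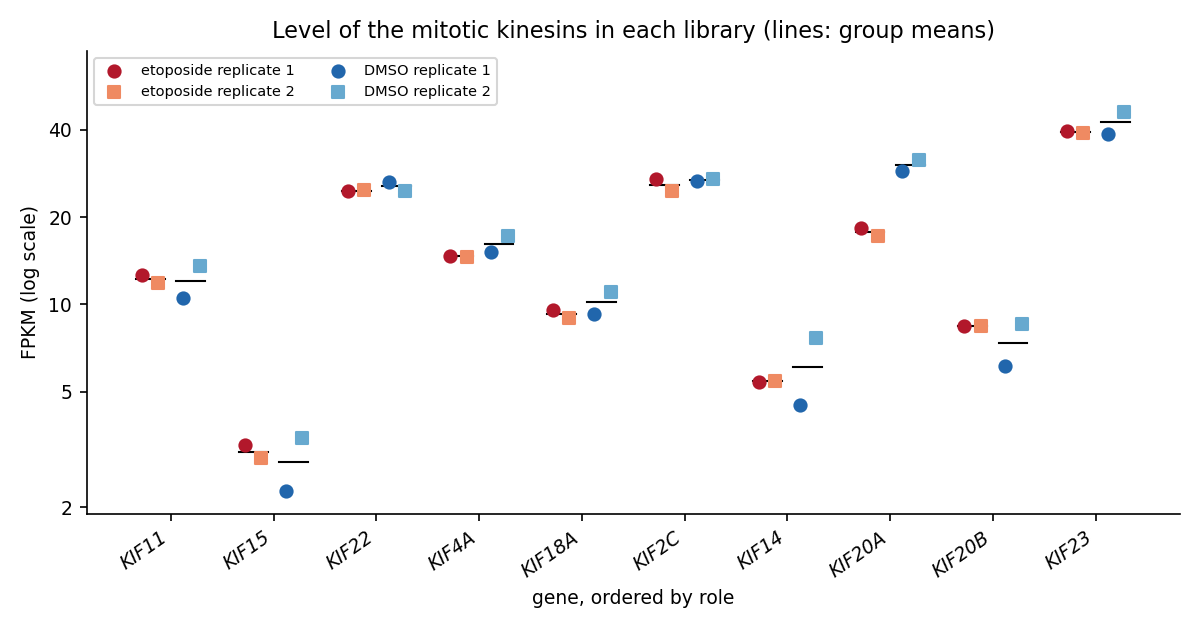
FPKM (log axis) of the 10 mitotic kinesin genes in each library, with etoposide libraries in red tones, DMSO libraries in blue tones and a line at each group mean. KIF20A stands at 18.3 and 17.3 FPKM in etoposide cells against 28.8 and 31.5 FPKM in DMSO cells, while the groups overlap for 8 of the other 9 genes and DMSO replicate 1 is the lowest library for 5 of the 10.

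The libraries held 47687126 and 58513480 read pairs for etoposide and 64473397 and 66500749 for DMSO, as implied by the deposited coverage and FPKM. The ovarian and epithelial markers PAX8, WT1, MUC16, EPCAM, KRT7, KRT8 and KRT18 were present at 11.4 FPKM or more in every library. Of these 7, 6 were lower in etoposide cells, where 9727 of the 22185 genes tested were lower. Their median log2 fold change was −0.27. At an unadjusted p under 0.05 in limma 5 of the 7 were lower, where 4.85% of all genes were. Both etoposide libraries lay below both DMSO libraries for 5 of the 7, against 19.0% of all genes, and above them for 1, against 28.9%. None passed the adjusted p of 0.05 in limma. The summed FPKM of 5 fibroblast markers was 8.39 and 8.17 in etoposide cells, against 6.92 and 6.96 in DMSO cells, with DCN near 0. Most of that sum was COL1A1, with 6.11 and 5.80 FPKM in etoposide cells, against 4.36 and 4.42 FPKM in DMSO cells. Of the 4 fibroblast markers tested, COL1A1 and PDGFRB had positive log2 fold changes and COL1A2 (−0.17) and LUM (−0.22) negative ones. The 4 leukocyte markers summed to at most 0.576 FPKM and the 3 endothelial markers to at most 1.02 FPKM in any library. The part of these genes in the kinesin values was not tested. DMSO replicate 1 had less coverage towards the 5′ ends of transcripts than the other libraries. Over 9018 genes with at least 1 FPKM and a main transcript of at least 2000 bases, the median of 5′ over 3′ coverage was 1.03 and 1.02 in the etoposide libraries, and 0.931 and 1.03 in DMSO replicates 1 and 2.

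The motors that hold the poles apart came out level. KIF11 (chr10:92574105-92655395, plus strand) encodes Eg5, the tetrameric kinesin-5 that slides antiparallel microtubules and whose inhibition gives monopolar spindles. It had 12.7 and 11.8 FPKM in etoposide cells, against 10.5 and 13.6 FPKM in DMSO cells. The etoposide values lay between the DMSO values, and the log2 fold change was 0.03 (95% interval −0.30 to 0.37, limma adjusted p = 0.931). KIF15 (chr3:44761721-44873376, plus strand), a kinesin-12 that can take over when Eg5 is blocked, was the lowest of the 10 genes in every library. It had 3.26 and 2.95 FPKM in etoposide cells, against 2.28 and 3.47 FPKM in DMSO cells. Again both etoposide libraries fell inside the DMSO range, and the interval of −0.37 to 0.64 around a log2 fold change of 0.14 left a difference of either sign possible (limma adjusted p = 0.796).

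The chromokinesins, which bind chromosome arms and push them towards the equator, differed little. KIF22 (chr16:29790719-29805384, plus strand), the kinesin-10 called Kid, had 24.5 and 24.7 FPKM in etoposide cells, against 26.5 and 24.6 FPKM in DMSO cells. Its log2 fold change of −0.05 had the narrowest interval of the 10 genes, −0.25 to 0.14 (limma adjusted p = 0.800). KIF4A (chrX:70290104-70420886, plus strand), a kinesin-4 that also works with PRC1 to set the length of the central spindle, had 14.7 and 14.6 FPKM in etoposide cells, against 15.1 and 17.3 FPKM in DMSO cells. Both etoposide values were the lower ones, but the gap to DMSO replicate 1 was smaller than the gap between the DMSO libraries, and the log2 fold change was −0.14 (−0.38 to 0.09, limma adjusted p = 0.545). KIF4B, a copy of KIF4A on another chromosome with 94.3% identity over 4387 bases, was listed at 0.225 and 0.291 FPKM in etoposide cells and at 0.153 and 0.340 FPKM in DMSO cells. How reads common to both copies were divided between them was not tested.

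The motors of microtubule ends overlapped between groups. KIF18A (chr11:28020619-28108156, minus strand), the kinesin-8 that damps chromosome oscillations at the plate, had 9.59 and 8.98 FPKM in etoposide cells, against 9.26 and 11.1 FPKM in DMSO cells. Its log2 fold change was −0.12 (−0.41 to 0.16, limma adjusted p = 0.663). KIF2C (chr1:44739818-44767767, plus strand), the kinesin-13 MCAK that removes tubulin at wrongly attached centromeres, had 27.0 and 24.6 FPKM in etoposide cells, against 26.6 and 27.1 FPKM in DMSO cells. Etoposide replicate 1 was within the DMSO range and replicate 2 below it, with a log2 fold change of −0.06 (−0.26 to 0.15, limma adjusted p = 0.790).

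The motors of the central spindle and cytokinesis held the widest range of differences. KIF14 (chr1:200551497-200620751, minus strand), a kinesin-3 that recruits citron kinase to the midbody, had 5.41 and 5.44 FPKM in etoposide cells, against 4.49 and 7.64 FPKM in DMSO cells. The etoposide libraries nearly coincided while the DMSO libraries were the most unequal of the 10 genes, and the log2 fold change was −0.11 (−0.70 to 0.48, limma adjusted p = 0.868). KIF20A (chr5:138178719-138187723, plus strand), also called MKLP2, carries the chromosomal passenger complex from centromeres to the central spindle at anaphase. It had 18.3 and 17.3 FPKM in etoposide cells, against 28.8 and 31.5 FPKM in DMSO cells. The group means were 17.8 ± 0.727 and 30.2 ± 1.94 FPKM (SD, n = 2 each). The groups were far apart relative to the replicates, with a log2 fold change of −0.76 ± 0.0868 (SE) and an interval of −0.97 to −0.54. Its unadjusted p was 0.000138 and its adjusted p 0.169 in limma, rank 17 of the 22185 genes, so that the difference did not pass the correction. An exact two-sided permutation test of the KIF20A level gave p = 0.333, the smallest that 2 libraries against 2 allow.

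The other kinesin-6 genes did not share that difference. KIF20B (chr10:89701590-89774939, plus strand), or MPHOSPH1, acts at the midbody and in late cytokinesis. It had 8.46 and 8.41 FPKM in etoposide cells, against 6.15 and 8.57 FPKM in DMSO cells, with a log2 fold change of 0.21 (−0.19 to 0.62, limma adjusted p = 0.593). KIF23 (chr15:69414246-69448427, plus strand), or MKLP1, forms the centralspindlin complex with RACGAP1 and bundles the midzone. It had 39.6 and 39.0 FPKM in etoposide cells, against 38.9 and 46.0 FPKM in DMSO cells. Its log2 fold change was −0.11 (−0.35 to 0.14, limma adjusted p = 0.664), with DMSO replicate 1 just below the etoposide libraries.

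Ratios inside a library do not depend on how it was scaled, but they still carry uneven coverage along transcripts. In DMSO replicate 1 the 5′ over 3′ coverage was 0.717 for KIF20A, 0.522 for KIF20B and 0.671 for KIF23. It was 0.948 for KIF2C and 0.792 for KIF22. The part of this in the ratios was not tested. KIF20A over KIF20B was 2.16 and 2.05 in etoposide cells, against 4.68 and 3.68 in DMSO cells. KIF20A over KIF23 was 0.462 and 0.443 in etoposide cells, against 0.741 and 0.685 in DMSO cells. Relative to KIF2C, KIF20A stood at 0.678 and 0.701 in etoposide cells, against 1.08 and 1.17 in DMSO cells, so that the order of these motors was reversed. The groups did not overlap for any of the 4 ratios computed, which included KIF22 (0.746 and 0.698 in etoposide cells, 1.09 and 1.28 in DMSO cells), and each exact permutation p was 0.333. All 4 ratios share the KIF20A values. In the order of FPKM levels, KIF23 was highest and KIF15 lowest in all 4 libraries, and KIF11, KIF4A, KIF18A, KIF14 and KIF20B kept their places. KIF20A was in place 4 in both etoposide libraries and in place 2 in both DMSO libraries. It made up 11.2% and 10.9% of the summed FPKM of the 10 genes in etoposide cells, against 17.1% and 16.5% in DMSO cells. KIF2C and KIF22, neighbours in that order, changed places between the etoposide libraries.

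Coverage of single exons showed where along the transcripts these differences lay. Over the 19 exons of the main KIF20A transcript (3095 bases), coverage was lower in etoposide cells in all 19, with log2 ratios of −1.03 to −0.15 and a median of −0.76. Both etoposide libraries lay below both DMSO libraries in 18 exons, the exception being exon 1. In its last exon (628 bases), coverage per 1000000 read pairs was 3.52 and 3.49 in etoposide cells, against 6.37 and 5.73 in DMSO cells. CDC23, a subunit of the anaphase-promoting complex, lies on the opposite strand and shares 74 bases with that exon. It had 19.6 and 19.0 FPKM in etoposide cells, against 16.5 and 18.0 FPKM in DMSO cells. Counting made no use of strand, so that reads in the shared bases cannot be assigned to either gene. KIF4A likewise shares 77 bases with PDZD11, which had 37.2 and 36.7 FPKM in etoposide cells and 37.6 and 37.3 FPKM in DMSO cells.

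KIF23 behaved differently along its length. In exon 1 coverage per 1000000 read pairs was 3.42 and 3.25 in etoposide cells, against 2.099 and 4.10 in DMSO cells, so that the etoposide values lay between the DMSO values. In the last of its 24 exons it was 5.83 and 5.75 in etoposide cells, against 7.04 and 6.50 in DMSO cells, with the groups apart. In all, 7 of 24 exons had both etoposide libraries below both DMSO libraries. The share over the exons of all genes was not counted, and for whole genes it was 19.0%. Exons of the same transcript are not independent. KIF14 showed the steepest slope in DMSO replicate 1. In exon 2 its coverage per 1000000 read pairs was 1.11 and 0.988 in etoposide cells, against 0.427 and 1.43 in DMSO cells, and in the last exon (exon 30) 1.06 and 1.12 in etoposide cells, against 1.32 and 1.42 in DMSO cells. At its 3′ end the DMSO libraries were close to each other and both higher.

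**Figure D2:**
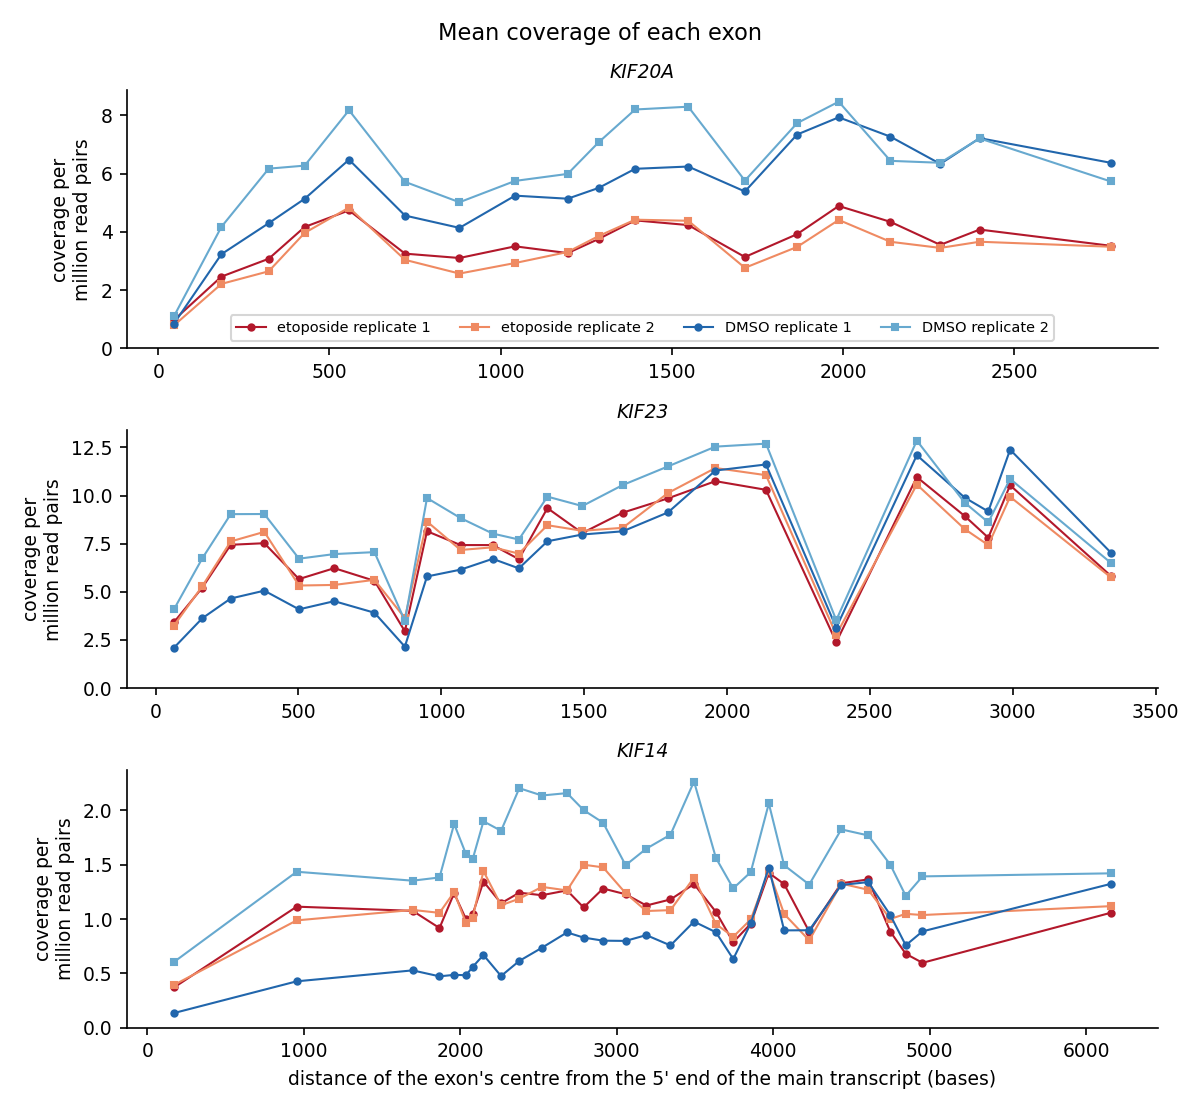
Mean coverage of each exon per 1000000 read pairs (y axis, from 0) against the distance of its centre from the 5′ end of the main transcript in bases (x axis) for KIF20A, KIF23 and KIF14, 1 line per library. In KIF20A the etoposide lines run below the DMSO lines in 18 of 19 exons, whereas in KIF23 and KIF14 DMSO replicate 1 starts lowest and reaches or passes the etoposide lines towards the 3′ end.

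The same slope was present in most of the members. The main transcript of each gene was divided at its midpoint, and the coverage of the 5′ part was divided by that of the 3′ part. DMSO replicate 1 had the lowest ratio for 9 of 10 genes. For KIF14 it was 1.03 and 0.964 in the etoposide libraries, against 0.461 and 1.07 in DMSO replicates 1 and 2. For KIF15 it was 0.949 and 0.821 in the etoposide libraries, against 0.505 and 0.972 in DMSO. KIF20A was less uneven, at 0.899 and 0.906 in etoposide cells, against 0.717 and 0.916 in DMSO cells. KIF22, with the shortest main transcript of the 10 (2081 bases) and the highest GC content (58.1%), was the exception, at 0.834 and 0.763 in etoposide cells, against 0.792 and 0.785 in DMSO cells. Over the whole genes, DMSO replicate 2 was higher than DMSO replicate 1 for 9 of 10 members, with a median absolute log2 difference of 0.25 and a range of −0.11 to 0.75. The etoposide libraries differed from each other by a median of 0.053 on the same scale. As a description over 10 genes measured in the same libraries, the DMSO replicate difference had a Spearman rho of 0.915 with the length of the main transcript and of −0.842 with its GC content. For the etoposide replicate difference these were 0.0545 and 0.0788.

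**Figure D3:**
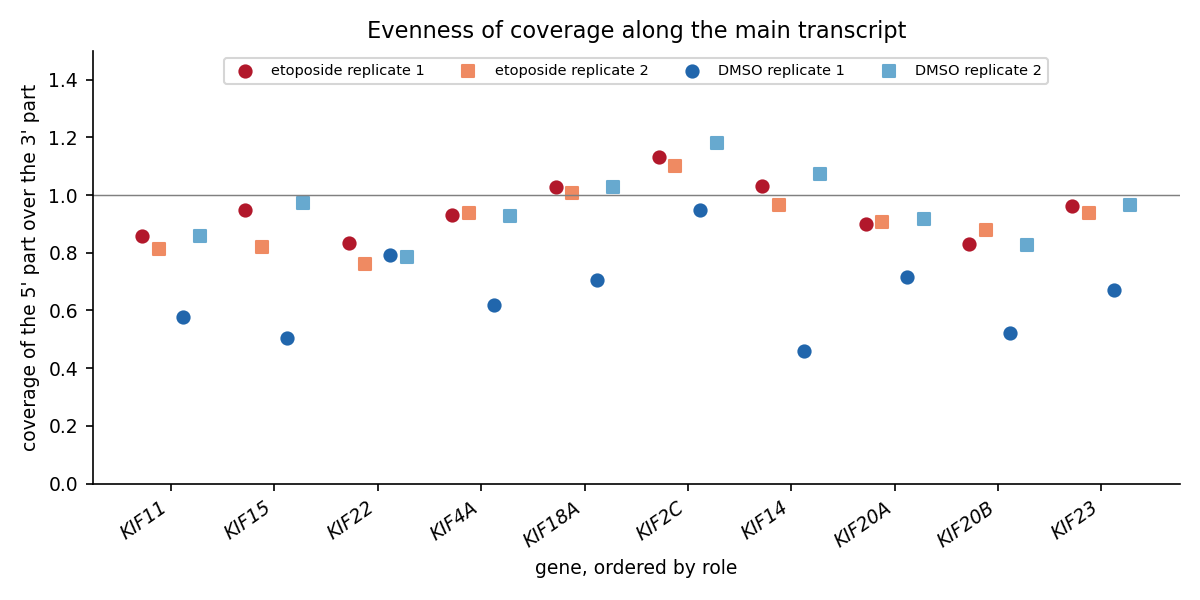
Coverage of the 5′ part of the main transcript divided by that of the 3′ part (y axis, from 0, the grey line at 1 marks even coverage) for each of the 10 genes and each library. DMSO replicate 1 lies below the other 3 libraries for 9 genes, down to 0.461 for KIF14, and among them for KIF22 (0.792).

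Coverage of the 3′ part alone, an alternative chosen after these slopes were seen and applied to all genes, placed the groups differently. In this part the DMSO libraries differed by 0.000925 to 0.27 on the log2 scale in absolute size, while in the 5′ part they differed by up to 1.49. Both etoposide libraries then lay below both DMSO libraries for 7 of 10 members, against 21.9% of the 21581 genes tested this way, and overlapped for KIF11, KIF15 and KIF20B. The 3′ values were scaled to the mapped bases of the whole library. Less 5′ coverage in DMSO replicate 1 therefore leaves a larger share for its 3′ parts, and the size of this was not tested. In this part DMSO replicate 1 was the higher DMSO library for KIF22, KIF4A, KIF2C and KIF20A, and the lower for the other members. KIF23 had 36.8 and 37.1 FPKM over its 3′ part in etoposide cells, against 42.0 and 42.9 FPKM in DMSO cells. KIF4A had 14.9 and 14.8 FPKM over this part in etoposide cells, against 18.3 and 17.8 FPKM in DMSO cells, and KIF18A had 9.15 and 8.83 FPKM in etoposide cells, against 10.7 and 10.8 FPKM in DMSO cells. For these 3 genes and KIF20A the gap between the groups was wider than the gap within either group. For KIF22, KIF2C and KIF14 it was narrower than the gap between the DMSO libraries. KIF22 had 23.3 and 24.9 FPKM over this part in etoposide cells, against 26.5 and 25.1 FPKM in DMSO cells.

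The size of these 3′ differences was small beside that of KIF20A. KIF20A had 19.0 and 17.8 FPKM over its 3′ part in etoposide cells, against 33.2 and 32.5 FPKM in DMSO cells, a log2 fold change of −0.83 (−1.01 to −0.65, limma adjusted p = 0.0988). The other 9 genes lay between −0.31 (KIF14) and 0.07 (KIF20B), with a median of −0.17. The median of all 10 was −0.18, beside 0.01 over all genes tested. At an unadjusted p under 0.05 in limma 5 members were lower (KIF4A, KIF18A, KIF14, KIF20A and KIF23), where 6.51% of all genes were lower, and 0 members passed the adjusted p, as against 1 gene of all (0.00463%). In the 5′ part 4 members were lower and 6 higher, with a median of 0.03 and no member past an adjusted p of 0.05 (limma, smallest 0.483). KIF20A was again the lowest there, at −0.68 (−1.01 to −0.35). DMSO replicate 1 enters every one of these values, and the part of its uneven coverage in the whole-gene differences was not tested beyond this division.

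**Figure D4:**
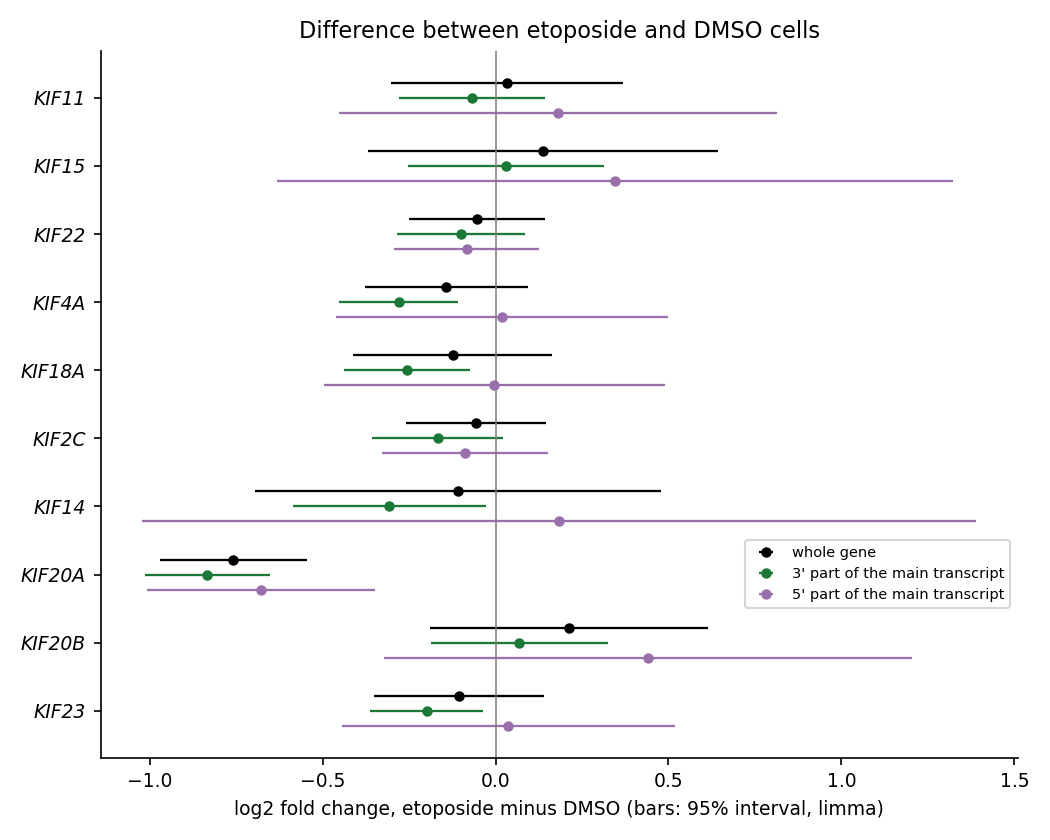
Log2 fold change between etoposide and DMSO cells (x axis, bars are 95% intervals from limma) for the whole gene, the 3′ part and the 5′ part of the main transcript of each mitotic kinesin. KIF20A lies left of 0 in all 3 measures (−0.76, −0.83 and −0.68), and the intervals of the 3′ part are narrower than those of the 5′ part for all 10 genes.

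The 10 genes have 65 annotated transcripts, of which 41 had a mean of at least 0.1 FPKM and 17 held at least 10% of the level of their gene. None passed an adjusted p of 0.05 in limma over 71340 transcripts, where 0% of all did. KIF20A-201 made up 98.3% of KIF20A and had 18.0 and 16.9 FPKM in etoposide cells, against 28.4 and 31.0 FPKM in DMSO cells, with a log2 fold change of −0.76 (limma adjusted p = 0.457 among transcripts). KIF4A-201, KIF18A-201, KIF2C-202 and KIF15-201 also held over 90% of their genes. KIF22 was split between the coding KIF22-201 and the retained-intron transcript KIF22-206, with mean shares of 83.2% and 11.1%, KIF14 between KIF14-201 (85.2%) and KIF14-202 (14.8%), and KIF20B between KIF20B-202 (62.1%) and KIF20B-201 (34.6%). For KIF23, the level was spread over KIF23-216 (38.3%), KIF23-202 (22.5%) and KIF23-215 (21.2%). KIF23-202 had 6.18 and 8.05 FPKM in etoposide cells, against 9.37 and 13.6 FPKM in DMSO cells, with the groups apart and a log2 fold change of −0.67 (limma adjusted p = 0.848 among transcripts). The groups were also apart, with etoposide lower, for KIF20A-201, KIF2C-202, KIF22-201 and KIF4A-201. The share over all transcripts was not counted, and on main transcripts it was 18.2% of genes. KIF23-216 had 9.72 and 20.2 FPKM in etoposide cells, against 17.9 and 14.2 FPKM in DMSO cells, and overlapped. KIF23-215 also overlapped, and had 14.2 and 5.40 FPKM in etoposide cells, against 3.07 and 12.4 FPKM in DMSO cells. The split of KIF23 between these transcripts thus differed between libraries of the same group.

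KIF11 was the extreme of such splits. The coding KIF11-201 had 5.95 and 2.67 FPKM in etoposide cells, against 10.5 and 2.78 FPKM in DMSO cells. KIF11-202, annotated for nonsense-mediated decay, had 6.70 and 2.86 FPKM in etoposide cells, against 0.00816 and 10.8 FPKM in DMSO cells. KIF11-205, annotated likewise, was listed at 0 in etoposide replicate 1 and both DMSO libraries and had 6.31 FPKM in etoposide replicate 2. These transcripts have 5016, 5134 and 5010 bases. The assignment changed between libraries of the same group while the sum stayed between 10.5 and 13.6 FPKM, so only the sum was read here.

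**Figure D5:**
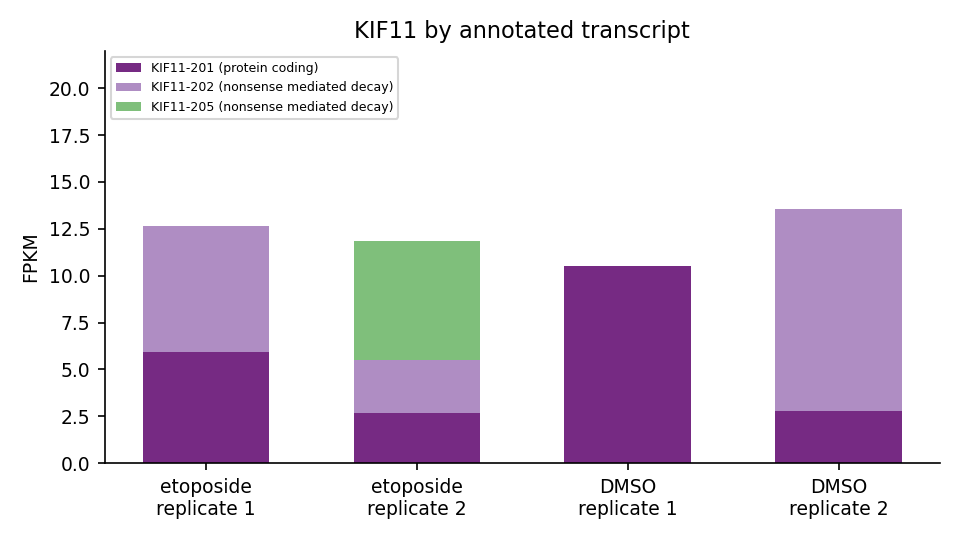
FPKM (y axis, from 0) of KIF11 in each library, stacked by annotated transcript. The transcript that holds most of the level differs between replicates of the same treatment, with KIF11-201 at 10.5 FPKM in DMSO replicate 1 and KIF11-202 at 10.8 FPKM in DMSO replicate 2, while the bars reach 10.5 to 13.6 FPKM.

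The proteins that the mitotic kinesins work with had a median log2 fold change of −0.10 (18 of 18 genes tested, 7 higher and 11 lower), beside −0.08 for the motors and 0.04 for all genes. The partner median was −0.16 without DMSO replicate 1, −0.01 without DMSO replicate 2 (9 higher and 9 lower) and −0.04 on TPM. None of the 18 passed an adjusted p of 0.05 in limma over all 4 libraries. The fit without DMSO replicate 2 rests on DMSO replicate 1 alone for that group, which had less 5′ coverage than the other libraries. PLK1, the kinase that docks on KIF20A at the central spindle, had 17.6 and 20.4 FPKM in etoposide cells, against 30.6 and 27.5 FPKM in DMSO cells, a log2 fold change of −0.61. The study, with its own test, lists PLK1 among its differentially expressed genes and names it as an exception to upregulation in etoposide cells. AURKA, the spindle pole kinase, had 43.8 and 42.5 FPKM in etoposide cells, against 63.2 and 60.8 FPKM in DMSO cells (−0.52). GTSE1, a microtubule plus-end protein that inhibits KIF2C, had 10.5 and 9.71 FPKM in etoposide cells, against 13.7 and 13.8 FPKM in DMSO cells (−0.44). These were named for the smallest p-values of the list. None of their groups overlapped, which the choice by p-value makes likely with 2 libraries a group. Of the 18 partners, 8 had both etoposide libraries below both DMSO libraries, where 19.0% of all genes were so placed. Both lay above for 5 partners, where 28.9% of all genes were so placed. At an unadjusted p under 0.05 in limma, 7 of the 18 were lower and 0 higher, where 4.85% and 7.06% of all genes were.

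Another 5 partners were read whatever their values. RACGAP1, which pairs with KIF23 in centralspindlin, had 34.3 and 36.6 FPKM in etoposide cells, against 36.3 and 39.2 FPKM in DMSO cells (−0.09, beside −0.11 for KIF23, and −0.04 without DMSO replicate 2 or −0.14 without DMSO replicate 1). PRC1, the midzone bundler that KIF4A and KIF14 bind, had 15.0 and 13.4 FPKM in etoposide cells, against 16.1 and 15.6 FPKM in DMSO cells (−0.16). CIT, the citron kinase, had 5.42 and 5.70 FPKM in etoposide cells, against 4.55 and 5.41 FPKM in DMSO cells (0.16, beside −0.11 for KIF14). Its value was 0.04 without DMSO replicate 1 and 0.28 without DMSO replicate 2. TPX2, which helps target KIF11 and KIF15 to the spindle, had 66.6 and 67.5 FPKM in etoposide cells, against 76.4 and 86.2 FPKM in DMSO cells (−0.28, beside 0.03 for KIF11 and 0.14 for KIF15). AURKB, the passenger complex kinase whose transfer to the midzone needs KIF20A, had 23.0 and 21.6 FPKM in etoposide cells, against 28.3 and 26.1 FPKM in DMSO cells (−0.28, beside −0.76 for KIF20A). The limma intervals of TPX2 and AURKB lay below 0, but neither gene passed the correction. Of all genes, 4.85% were lower at an unadjusted p under 0.05 in limma.

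Of 7 further kinesins with mitotic roles, 6 were tested, 3 higher and 3 lower, with a median of −0.04 that turned to 0.22 without DMSO replicate 2 and to 0.03 on TPM. KIF18B, a kinesin-8 of astral microtubules, had 10.4 and 9.64 FPKM in etoposide cells, against 11.6 and 11.2 FPKM in DMSO cells (−0.18). KIFC1, the minus-end kinesin-14 that clusters extra centrosomes, had 7.72 and 6.93 FPKM in etoposide cells, against 8.33 and 8.45 FPKM in DMSO cells (−0.20). KIF2A, the kinesin-13 of the poles, had 15.0 and 15.3 FPKM in etoposide cells, against 11.8 and 14.3 FPKM in DMSO cells (0.22). Its value turned to −0.04 with the length and GC correction and was 0.08 without DMSO replicate 1. Of 27 other kinesin genes, mostly transport motors, 23 were tested, with 17 higher, 6 lower and a median of 0.11. That median was −0.02 with the length correction (10 higher and 13 lower) and 0.03 without DMSO replicate 1 (13 higher and 10 lower). KIFC3, a minus-end motor, was the lowest of these by p, at 21.9 and 21.5 FPKM in etoposide cells, against 28.5 and 27.8 FPKM in DMSO cells (−0.37), while KIF3C and KIF24 were both at 0.22. Neither list had a gene past an adjusted p of 0.05 in limma over all 4 libraries, and a difference between the lists was not tested. Without DMSO replicate 2, the 6 further mitotic kinesins were 4 higher and 2 lower. The 23 other motors were then 18 higher and 5 lower, with a median of 0.15. That fit left DMSO replicate 1, which had less 5′ coverage, as the only DMSO library.

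KIF20A kept its direction when each library was left out in turn, with log2 fold changes of −0.82 to −0.69, and passed the adjusted p in limma without DMSO replicate 2 (−0.69, adjusted p = 0.0333, where 8.72% of all genes passed) and without etoposide replicate 1 (−0.80, adjusted p = 0.0278, where 0.442% passed). KIF20B passed without DMSO replicate 2, at 0.45 (adjusted p = 0.0388), and stood at −0.02 without DMSO replicate 1. In those fits the lone library was assumed to vary like the other group. With correction of each library for transcript length and GC content, KIF20A was at −0.81 and KIF20B at −0.05, and 8 of 10 members had both etoposide libraries below both DMSO libraries, against 24.7% of all genes, beside 2 members without the correction.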

How the data were processed

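RNA of 4 OVCAR3 libraries, 2 with etoposide and 2 with DMSO as the labels give them, was sequenced by the authors with a stranded kit as read pairs of 2 x 100 bases. According to the submitters' notes, the file headers and the study's methods, the authors aligned to GRCh38 with HISAT2, sorted with SAMtools and ran StringTie 2.1.7 on annotated transcripts of Ensembl release 104 without a strand option. The deposited files hold coverage, FPKM and TPM per transcript, which the authors wrote as text attributes, and no counts, so that no count test was run.

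FPKM were summed per gene. Genes with a mean of at least 0.1 FPKM were tested as log2(FPKM + 0.1) with limma 3.58.1 (R 4.3.3, trend and robust variance, two-sided, Benjamini-Hochberg over 22185 genes). A fold change is on that scale, which understates low genes. Intervals are 95% and cover the spread between libraries. Exon coverage was scaled to the implied read pairs (mapped bases over 200), and estimated fragments of a member ranged from 684 to 10446 per library. Depth was inferred from coverage. The test was checked on simulated data with independent noise, which held no uneven coverage of the kind in DMSO replicate 1. Python 3.11.15, pandas 2.3.3, scipy 1.17.1 and matplotlib 3.10.9 were used, with GENCODE release 44 for transcript names and types.

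The members, lists and tests were chosen with earlier results of these data known. All 10 members were named, then the 3 smallest p-values of each comparison list, and RACGAP1, PRC1, TPX2, CIT and AURKB. Alternatives were other pseudocounts, filters, scalings, corrections for length and GC content, TPM, voom on estimated fragments, main transcripts, a replicate block and leaving out each library, and, added after seeing the data, each part of the main transcript. Sequence reads were not used here. The study's methods for this assay mention transfection and a mutant. The labels name neither for these libraries and were followed.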

Additional observations from a re-analysis of the deposited data

How the results depend on the processing

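The log2 fold change of KIF20A stayed between −0.83 and −0.68 under all 19 alternatives, with adjusted p from 0.0278 to 0.621 in limma. Over the 10 genes and 19 alternatives, 163 values kept their direction and side of the threshold and 24 changed sign. Another 3, each with a library left out, kept their direction. Other filters, the fit without the variance trend and the replicate block leave every fold change as it was, so their directions were fixed in advance. The block with the length and GC correction likewise repeats the fold changes of that correction. The count of genes past an adjusted p of 0.05, 0 as reported, was 6 with the length and GC correction, 2 on main transcripts, 1 with voom on estimated fragments, 1 on the 3′ part, and 5 to 1934 when a library was left out (5 without DMSO replicate 1, 1934 without DMSO replicate 2, 98 and 102 without etoposide replicates 1 and 2). Members with both etoposide libraries below both DMSO libraries, 2 as reported, were 1 on TPM (13.3% of all genes so placed), 4 on main transcripts (18.2%), 6 after median centring (27.9%), 6 with the length correction (24.9%), 7 on the 3′ part (21.9%), 8 with the length and GC correction (24.7%), and 3 to 9 with a library left out. With 1 library fewer, separation is easier, and 29.0% to 35.9% of all genes were so placed (9 members and 31.2% without DMSO replicate 1).

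KIF11 (0.03 as reported) was −0.0673 on the 3′ part, −0.43 on main transcripts, −0.0684 with the length correction, −0.15 with the length and GC correction, −0.0351 after median centring, and −0.15 to 0.22 with a library left out. KIF15 was −0.0231 and KIF20B −0.0549 with the length and GC correction, and they ranged from −0.15 to 0.43 and from −0.0226 to 0.45 with a library left out. On TPM, KIF22 was 0.0146 and KIF2C 0.0102. On the 5′ part, KIF4A was 0.0182, KIF14 0.18 and KIF23 0.0370. With a library left out, KIF22 ranged from −0.11 to 0.0022, KIF18A from −0.25 to 0.0037, KIF2C from −0.12 to 0.0090, KIF14 from −0.49 to 0.27 and KIF23 from −0.23 to 0.0162. The cause was not tested. The median of the 10 genes ranged from −0.19 to 0.03.

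Same-numbered libraries did not deviate together (correlation of replicate differences 0.0133 over 22185 genes). One such correlation cannot show that the numbers pair nothing, since the DMSO difference also followed transcript length (Spearman rho 0.307) and GC content (−0.337). With the replicate number as a block, 0 genes passed and KIF20A had an adjusted p of 0.0725 at −0.76. With the block and the length and GC correction together, KIF11 was −0.15, KIF15 −0.0231 and KIF20B −0.0549. With 2 libraries a group, the intervals of the whole-gene values of the 9 members other than KIF20A all spanned 0.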
